A study of Mus musculus with 12 samples.

Results

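The nuclear genes of the respiratory chain and the ATP synthase were followed in CD8 T cells of KB5 mice, which carry a transgenic T cell receptor and have CBA/J as the labelled strain. Members were the rows whose symbol begins with Nduf, Uqcr, Cox4 to Cox8 or Atp5, or is Sdha to Sdhd, Cyc1 or Cycs, which gave 89 of the 16353 genes in the table. Of these, 85 passed the filter on low counts and were tested. The 89 comprise 35 subunits and 4 assembly factors of complex I, 4 subunits of complex II, 9 of complex III, cytochrome c, 15 genes of complex IV, 3 genes related to complex IV, 15 subunits of the ATP synthase, 2 genes named after the ATP synthase that are not counted among its subunits (Atp5s and Atp5sl), and Cox4nb, an older name of Emc8, which is no respiratory subunit.

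The study measured RNA from spleen CD8 T cells sorted on the KB5 receptor and CD8 to a labelled purity of 95%, in 12 libraries, 3 for each of 4 groups. Naive cells came from untreated mice, and the other cells were taken 12 h after treatment. For the activated group, mice received C57BL/6 splenocytes by vein (10 M, mega, cells). For the tolerized group they also received anti-CD154, which blocks the ligand of CD40, at 0.5 mg, and for the inflamed group 100 µg of lipopolysaccharide on top of both. The cells were sorted on the same transgenic receptor, so the T cells described have a single specificity. The libraries also held RNA of other spleen cells, as the markers given below show. The labels do not tie the libraries to separate mice, so each p reflects the spread among these libraries alone, which may be technical.

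The respiratory chain passes electrons from NADH and succinate through complexes I and II to coenzyme Q, then through complex III and cytochrome c to oxygen at complex IV. The proton gradient that complexes I, III and IV build drives the ATP synthase, in which a ring of c subunits in the membrane turns a shaft inside the F1 head. Antigen sets naive T cells, which are small and quiet, on the way to growth and division, and an increase in mitochondrial mass is a known part of that change. Some subunits are encoded by mitochondrial DNA. These were not analysed here.

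Most members were higher in all 3 antigen-exposed groups than in naive cells. In activated cells 70 of 85 tested members rose and 5 fell, where 35.3% of the 12499 tested genes rose and 35.3% fell. In tolerized cells 71 rose and 7 fell (37.4% and 35.9% of tested genes), and in inflamed cells 70 rose and 7 fell (36.9% and 35.5%). Calls rest on limma fitted to log2(CPM + 1), where CPM is counts per M (mega) reads after scaling, with the Benjamini-Hochberg adjusted p across the 12499 genes below 0.05. The median change of the members was 0.89, 0.90 and 0.89 on the log2 scale in activated, tolerized and inflamed cells, beside -0.04, -0.01 and -0.01 over all tested genes. The 3 comparisons use the same naive libraries, so their likeness is not independent evidence.

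The members are short genes, and short genes as a class were somewhat higher in the exposed libraries. Their median exon length was 727 bases, against 2690 over the whole table. Other tested genes between the 5th and 95th percentile of the members' lengths (437 to 2819 bases, 6158 genes) had medians of 0.06, 0.10 and 0.10 in activated, tolerized and inflamed cells. A narrower window of 533 to 1313 bases (1510 genes) gave 0.22, 0.27 and 0.27, with 675 genes higher and 423 lower in activated cells. The narrower window was chosen after the values of the wider one were seen, because the wider one held about as many genes as it left out. The part of length in the members' change was not tested beyond these values.

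At least 2-fold and called, 36 members were higher and 2 lower in activated cells, beside 17% and 17.6% of tested genes. The counts were 35 and 2 in tolerized cells (19% and 18.7% of tested genes) and 36 and 2 in inflamed cells (18.7% and 18.5%). All 3 libraries of a group lay above all 3 naive libraries for 70 members in activated, 72 in tolerized and 70 in inflamed cells, where 38.1%, 39.7% and 39.5% of tested genes did. They lay below for 6, 6 and 9 members, where 37.5%, 38.6% and 38.6% of tested genes did. In a bulk library, less RNA of a gene per cell and fewer cells that hold it cannot be told apart.

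**Figure D1:**
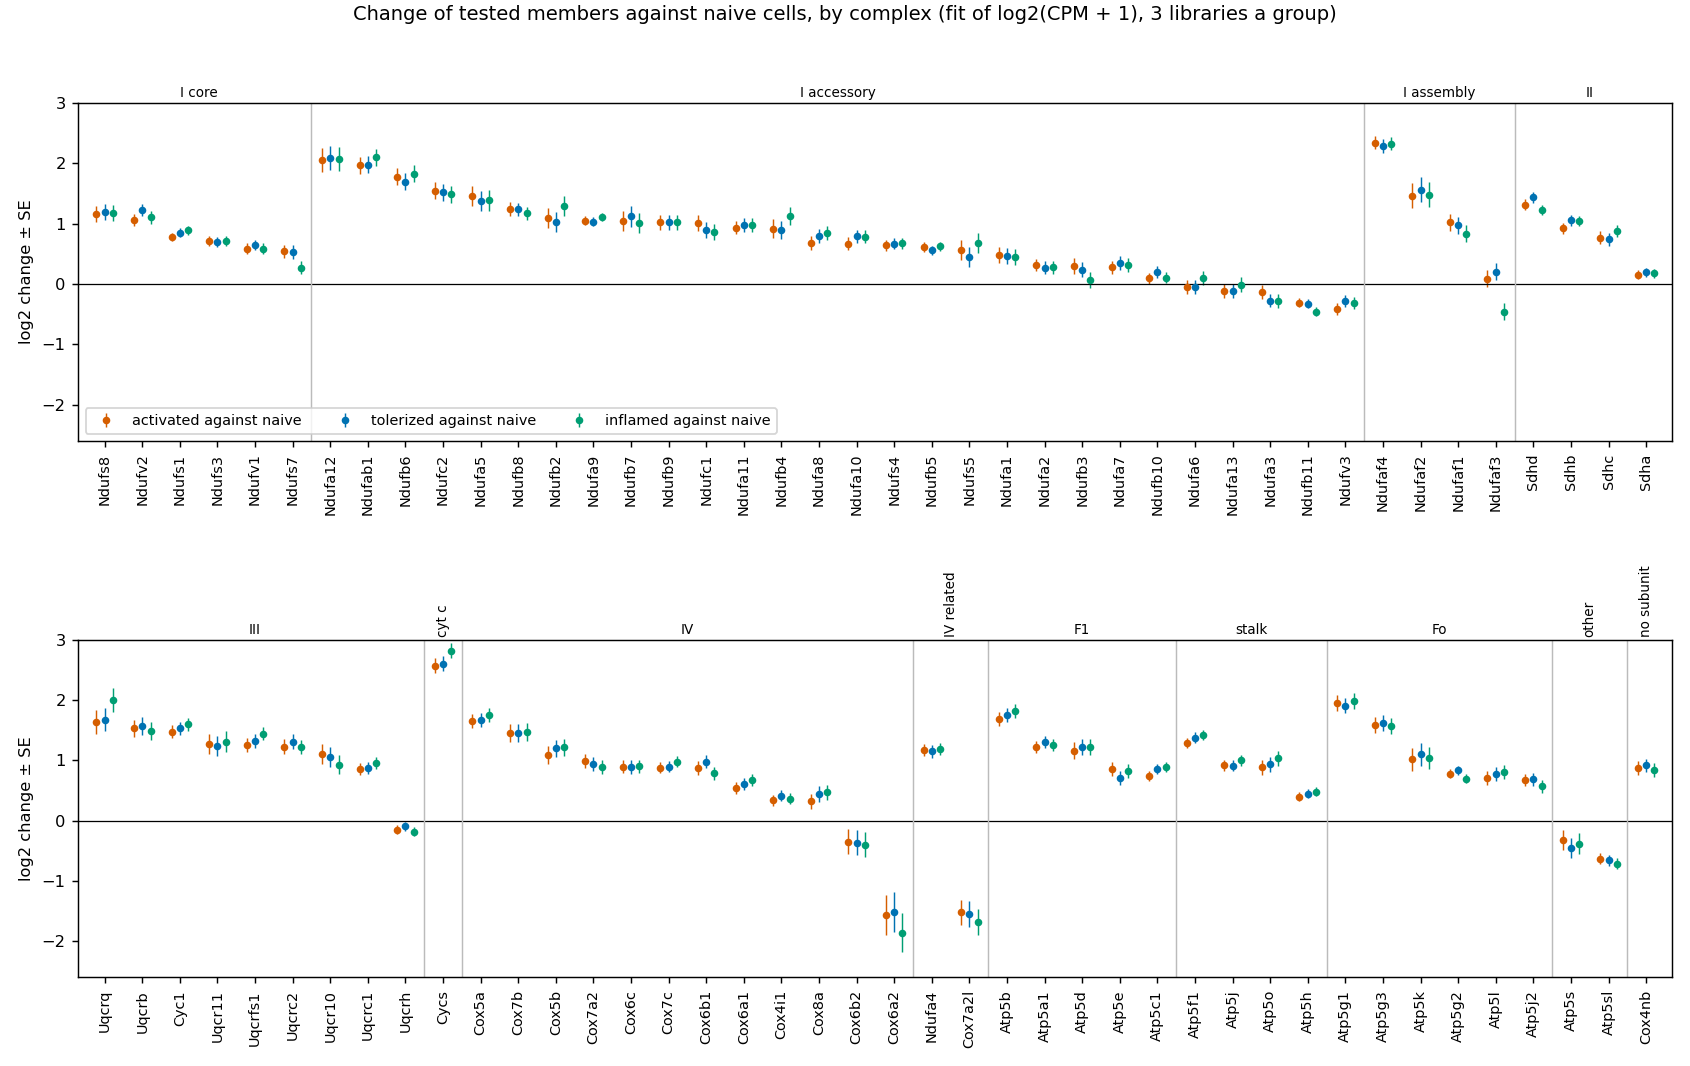
Change of 84 of the 85 tested members against naive cells on the log2(CPM + 1) scale, ordered by complex and by size within it, with points for activated, tolerized and inflamed cells and bars for the standard error of the fit (3 libraries a group). Most points lie above 0, Cycs and Ndufaf4 lie highest, and Cox7a2l and Cox6a2 lie lowest in all 3 groups.

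The summed level of the members was 5578 to 6106 CPM in naive libraries and 9866 to 12436 in the other 9. It was 1.93-fold higher in activated, 1.99-fold higher in tolerized and 2.0-fold higher in inflamed cells. Without scaling for composition the members took 0.685% ± 0.008 (SD, n = 3) of reads in naive and 1.09% ± 0.09 in activated cells. The corresponding shares were 1.10% ± 0.04 in tolerized and 1.09% ± 0.02 in inflamed cells.

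The size of the rise is given here by complex. In activated cells the summed CPM was 1.57-fold that of naive cells for complex I subunits, 1.50-fold for complex II, 2.05-fold for complex III, 1.78-fold for complex IV and 2.41-fold for the ATP synthase subunits. The 4 complex I assembly factors together stood at 3.43-fold and cytochrome c at 6.09-fold. In tolerized and inflamed cells complex I stood at 1.60-fold in both, the ATP synthase at 2.50-fold and 2.53-fold, and cytochrome c at 6.15-fold and 7.13-fold. These sizes depend on the scaling. With library size alone complex I stood at 1.29-fold in activated cells, complex II at 1.24-fold, complex III at 1.69-fold and complex IV at 1.47-fold. The ATP synthase stood at 1.99-fold, the assembly factors at 2.83-fold and cytochrome c at 5.01-fold. No test of the difference between complexes was made.

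**Figure D2:**
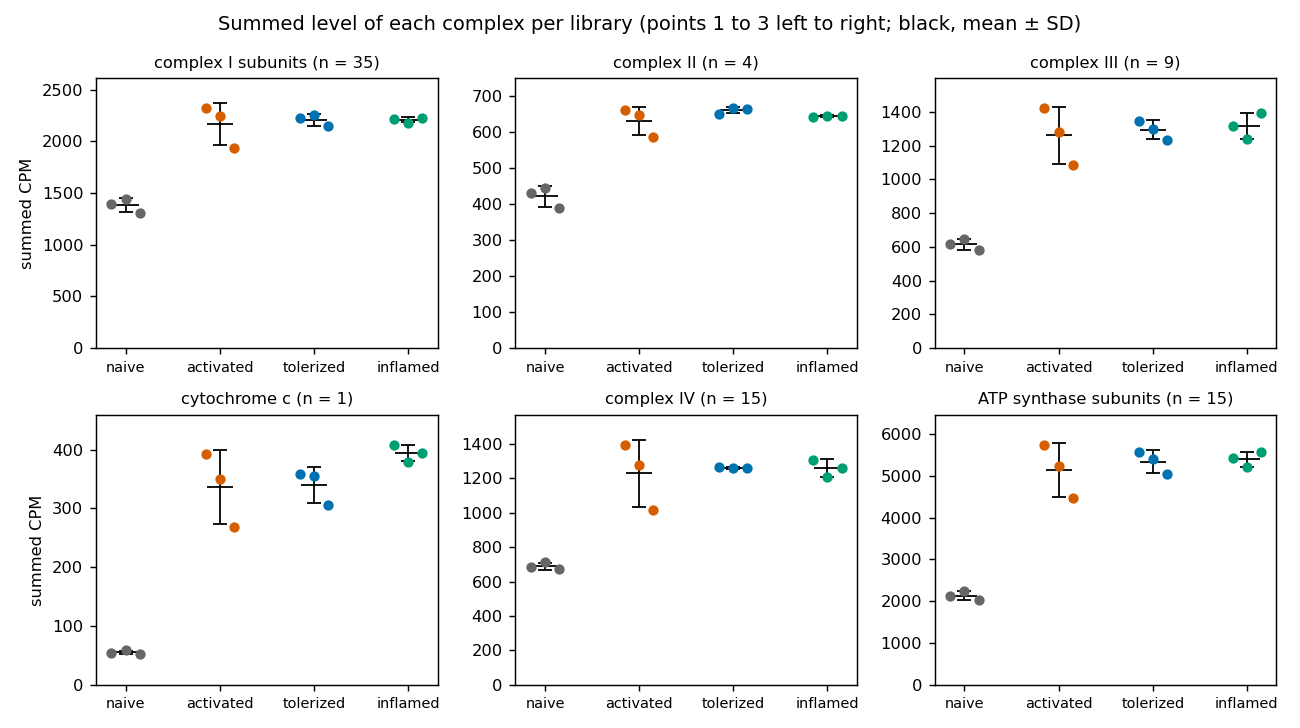
Summed CPM of each complex in every library, with the mean and SD of the 3 libraries of a group in black and axes that start at 0. Naive libraries lie below all exposed libraries in each of the 6 panels, with the widest relative step for cytochrome c and the narrowest for complexes I and II.

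Complex I, which takes electrons from NADH, had 28 of 35 subunits higher and 2 lower in activated cells, with a median of 0.68. Of all tested genes 35.3%, 37.4% and 36.9% were higher in activated, tolerized and inflamed cells, and 35.3% were lower in activated cells. All 7 core subunits in the table rose in each exposed group with the main scaling, and 1 or 2 of these calls in each group were lost with other scalings. The largest core change in activated cells was that of Ndufs8, an iron-sulfur subunit, at 23.6, 29.1 and 24.3 CPM in naive and 66.6, 62.4 and 47.8 CPM in activated libraries (log2 change 1.16 ± 0.13 (SE), adjusted p 2.46e-05). Its libraries did not overlap between the 2 groups.

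The 28 accessory subunits spread wider, from -0.41 to 2.05 in activated cells. Ndufa12, which sits beside the core subunits of the arm that binds NADH, was at 14.2, 17.5 and 15.8 CPM in naive and 82.9, 75.4 and 51.8 CPM in activated libraries (2.05 ± 0.20 (SE), adjusted p 7.13e-06). Ndufab1, the mitochondrial acyl carrier protein, was at 17.9, 19.2 and 15.7 against 82.8, 77.2 and 57 CPM (1.97 ± 0.14 (SE), adjusted p 8.6e-07). Neither overlapped between the groups, and activated replicate 3 was the lowest activated library for both. Both genes have a near-identical pseudogene, so their read assignment is uncertain.

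Accessory subunits also held the complex I genes that fell. Ndufv3, a subunit next to the NADH-binding core, was at 145, 134 and 117 CPM in naive and 96.7, 99.2 and 99.6 CPM in activated libraries (-0.41 ± 0.10 (SE), adjusted p 0.00473). Ndufb11, a membrane arm subunit, was at 84.6, 84.6 and 75.1 against 65.5, 66.9 and 63.7 CPM (-0.31 ± 0.08 (SE), adjusted p 0.00491). In both genes every activated library lay below every naive library. Ndufa3 was called lower in tolerized (-0.28, adjusted p 0.0468) and inflamed cells (-0.29, adjusted p 0.0402), and its change in activated cells was -0.13 (adjusted p 0.327). With upper-quartile scaling and with library size alone it was called lower in activated cells too. The call in tolerized cells was lost without any 1 of naive replicates 1, 2 and 3, activated replicates 1 and 2, tolerized replicates 1 and 2 or inflamed replicate 2 (adjusted p 0.0505 to 0.154). That in inflamed cells was lost without any 1 of naive replicates 1 and 2, tolerized replicate 2 or inflamed replicates 1 and 2 (0.0556 to 0.138). Adding the replicate number to the limma fit also lost the calls in tolerized (adjusted p 0.061) and inflamed cells (adjusted p 0.0534). Ndufb3, Ndufb10, Ndufa6 and Ndufa13 were not called in any of the 3 groups in the main fit. With library size alone Ndufa6 and Ndufa13 were called lower in all 3 groups. Ndufa13 was also called lower in activated and tolerized cells with upper-quartile scaling. The sign of Ndufb10 turned in all 3 groups with both of these scalings, and that of Ndufb3 in tolerized and inflamed cells with at least 1 of them.

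Among the complex I assembly factors, Ndufaf4 changed most. It was at 24.3, 24.1 and 22.4 CPM in naive, 129, 123 and 119 in activated, 125, 126 and 106 in tolerized and 108, 116 and 144 in inflamed libraries. All 9 exposed libraries were over 4 times as high as the highest naive library (2.34 ± 0.11 (SE), adjusted p 1.14e-07 in activated cells). Ndufaf2 (1.46) and Ndufaf1 (1.02) also rose, with Ndufaf2 at 2.86 to 3.44 CPM in naive and 7.99 to 14.3 CPM in exposed libraries. Ndufaf3, a partner of Ndufaf4 in early assembly, was at 13.1, 14 and 11.5 CPM in naive and 13.6, 15.4 and 12.2 CPM in activated libraries (0.09 ± 0.14 (SE), adjusted p 0.583). These groups overlap, and the sign of its change in activated cells turned with upper-quartile scaling and with library size alone. In inflamed cells Ndufaf3 was called lower than in naive cells (-0.46). The difference between the 2 partners was not tested.

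Complex II, which oxidises succinate, rose in 3 of its 4 subunits in activated cells, where 35.3% of tested genes rose. Sdhd, a membrane anchor, was at 56.9, 60.2 and 53.3 CPM in naive and 157, 147 and 126 CPM in activated libraries (1.31 ± 0.09 (SE), adjusted p 5.48e-07). Sdhb, the iron-sulfur subunit, was at 61.7, 65.9 and 63.5 against 137, 123 and 106 CPM (0.92 ± 0.09 (SE), adjusted p 6.17e-06), and Sdhc, the other anchor, had a change of 0.77 (adjusted p 8.24e-05). None of these 3 overlapped between naive and activated libraries.

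Sdha, the subunit that holds the flavin and binds succinate, stood apart within complex II. It was at 263, 264 and 222 CPM in naive, 270.2, 282 and 279 in activated, 275, 284 and 294 in tolerized and 280.0, 284 and 281 in inflamed libraries. The lowest exposed library was only just above the highest naive ones. The change was 0.15 ± 0.07 (SE), adjusted p 0.0881 in activated cells, with a 95% interval of -0.01 to 0.32, and 0.19 in tolerized cells, which was called (adjusted p 0.0379). With upper-quartile scaling or scaling by library size alone its sign turned in all 3 groups, so no direction is given. Per kilobase of exon, Sdha was the highest of the 4 in naive cells at 87.3 ± 8.27 CPM per kb (SD, n = 3), beside 59.4 ± 1.94 for Sdhb, and in activated cells it was at 96.8 ± 2.08, beside 114 ± 14.4 for Sdhb.

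Complex III had 8 of 9 subunits higher in each exposed group, with a median of 1.25 in activated cells. Among all tested genes 35.3%, 37.4% and 36.9% were higher in activated, tolerized and inflamed cells. Uqcrq, a small accessory subunit, was at 18, 21.2 and 18.4 CPM in naive and 79.1, 69 and 42.5 CPM in activated libraries (1.63 ± 0.20 (SE), adjusted p 3.64e-05). Cyc1, the cytochrome c1 that hands electrons to cytochrome c, was at 84.4, 81.2 and 73.2 against 251, 234 and 188 CPM (1.48 ± 0.11 (SE), adjusted p 1.1e-06). Cyc1 was higher in every exposed library than in any naive one, with 188 to 262 CPM in the 9. Uqcrh, the hinge subunit at the docking site of cytochrome c, was the exception at 129.8, 146 and 135 CPM in naive and 129, 122 and 119 CPM in activated libraries (-0.15 ± 0.08 (SE), adjusted p 0.0998). It was not called in the main fit and was called lower in all 3 groups with upper-quartile scaling and with library size alone, and in activated and inflamed cells with median-of-ratios scaling.

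Cytochrome c itself, from Cycs, had the largest change of all members. It was at 53.9, 58.7 and 53 CPM in naive, 392, 350.0 and 268 in activated, 359, 355 and 305 in tolerized and 408, 379.6 and 395 in inflamed libraries. The lowest exposed library was over 4 times the highest naive one. The log2 change was 2.57 ± 0.13 (SE), adjusted p 1.14e-07 in activated, 2.60 ± 0.13 (SE), adjusted p 8.64e-08 in tolerized and 2.81 ± 0.13 (SE), adjusted p 6.34e-08 in inflamed cells. Cycs has pseudogenes with a best identity of 99.37% and a longest match of 319 bases, so some reads may belong to copies. The best and the longest match need not be the same.

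Complex IV, the oxidase, had 10 of 12 tested genes higher and 1 lower in activated cells, with a median of 0.88. Over all tested genes 35.3% were higher and 35.3% lower there. Cox5a, a subunit on the matrix side, was at 48, 49.3 and 49.5 CPM in naive and 188, 156 and 129.8 CPM in activated libraries (1.65 ± 0.12 (SE), adjusted p 7.62e-07). Cox4i1, the main isoform of subunit 4, was at 175, 175 and 164 CPM in naive and 249.5, 214 and 191 CPM in activated libraries (0.34 ± 0.09 (SE), adjusted p 0.00731). Both were called in all 3 exposed groups, and the call of Cox4i1 was lost in each under at least 1 of 3 other scalings. Ndufa4, now placed in complex IV, rose from 63.7, 69 and 55 to 155, 150.4 and 121 CPM (1.17 ± 0.10 (SE), adjusted p 3.85e-06). It was counted here with the genes related to complex IV, so it is not among these 12.

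The isoforms of complex IV typical of heart and skeletal muscle were near the floor. Cox6a2 was at 0.957, 4.13 and 4.28 CPM in naive and 0.648, 0.213 and 0.0187 CPM in activated libraries (-1.57 ± 0.33 (SE), adjusted p 0.00154). The naive libraries differed over 4-fold, and naive replicate 1 was the lowest of them. It was at 0.38, 0.246 and 0.32 CPM in tolerized and 0.0917, 0.0195 and 0 CPM in inflamed libraries. The summed level of 14 markers of red pulp macrophages was 1027, 2585 and 2613 CPM in the naive libraries, 888, 223 and 77.3 in activated, 176, 144 and 58.7 in tolerized and 460.1, 186 and 15.8 in inflamed ones. Cox6a2 had the order of this sum within the naive, activated and inflamed libraries but not within the tolerized ones, and the part of these cells in its change was not tested. Cox6b2, the testis form, was at 0.435 to 1.52 CPM in naive and 0.152 to 0.613 CPM in exposed libraries and was not called. Cox4i2, Cox7a1, Cox8b and Ndufa4l2 did not pass the filter, with at most 0.291 CPM in any library. The common isoforms Cox4i1, Cox6a1, Cox6b1, Cox7a2 and Cox8a therefore made up at least 96.0% of the reads per kilobase of their pair in every library.

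Cox7a2l, which joins complexes III and IV in a supercomplex, was the highest member per kilobase in naive cells, at 312 ± 3.8 CPM per kb (SD, n = 3). It was at 354, 363 and 357 CPM in naive, 96.5, 123 and 160.5 in activated, 98.9, 109 and 168 in tolerized and 102, 133 and 101 in inflamed libraries. The naive libraries were within 10 CPM of each other, and every exposed library was at least 2-fold lower. The change was -1.52 ± 0.21 (SE), adjusted p 0.00011 in activated cells. A pseudogene is 100% identical to Cox7a2l over at least 200 bases, so some of its reads may belong to the copy.

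The ATP synthase rose in all 15 tested subunits in each exposed group, with a median of 0.91 in activated cells. The shares of all tested genes called higher were 35.3%, 37.4% and 36.9% in activated, tolerized and inflamed cells. With other scalings the call was lost for Atp5h in activated and tolerized cells and for Atp5j2 in inflamed cells. Atp5b, the catalytic beta subunit, was at 536, 577 and 524 CPM in naive and 2028, 1763 and 1519 CPM in activated libraries (1.69 ± 0.12 (SE), adjusted p 6.46e-07). Atp5a1, the alpha subunit that alternates with it in the head, was at 493, 507 and 458 against 1254, 1156 and 991 CPM (1.22 ± 0.10 (SE), adjusted p 2.02e-06), and Atp5c1, the gamma subunit of the turning shaft, had a change of 0.73. Atp5b and Atp5a1 did not overlap between naive and exposed libraries. Per kilobase Atp5b was second to Cox7a2l in naive cells, at 290.3 ± 14.8 CPM per kb (SD, n = 3), and first in activated cells, at 942 ± 136, followed by Atp5a1 at 466 ± 54.6.

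The stalk and the membrane part moved the same way. Atp5f1, the b subunit of the stalk, was at 108, 114 and 99.5 CPM in naive and 289, 266 and 238 CPM in activated libraries (1.29 ± 0.08 (SE), adjusted p 5.14e-07). Atp5h, the d subunit, had the smallest change of the 15, 0.39 (adjusted p 0.00081). Atp5f1 and Atp5h each have a near-identical pseudogene, so their read assignment is uncertain. Atp5sl and Atp5s, now named Dmac2 and Dmac2l, were not among the genes that rose. Atp5sl was at 48.6, 45.7 and 51.6 CPM in naive and 29.5, 30.4 and 33.3 CPM in activated libraries (-0.63 ± 0.09 (SE), adjusted p 0.000126). Atp5s was at 2.23 to 2.81 CPM in naive and 1.12 to 2.27 CPM in exposed libraries. In the main fit it was called lower in tolerized cells (adjusted p 0.03) but not in activated (-0.33, adjusted p 0.0999) or inflamed cells (-0.38). Its call in tolerized cells was lost without any 1 of naive replicates 1 and 2 or tolerized replicates 1 and 2 (adjusted p 0.0659 to 0.0928), and it was called lower in activated cells without activated replicate 3 (0.0455) and with upper-quartile scaling (0.0183) or library size alone (0.0216). In inflamed cells it was called lower with median-of-ratios (0.0394) and upper-quartile scaling (0.0104) and library size alone (0.00949). The same held there with a pseudocount of 5 (0.038), without activated replicate 1 (0.0146) and with the 2 groups alone (0.029).

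The c subunit of the membrane ring is made from 3 genes that code for the same mature protein. Atp5g1 was at 50.7, 52.5 and 49.3 CPM in naive and 238, 206 and 161 CPM in activated libraries (1.95 ± 0.13 (SE), adjusted p 6.07e-07). Atp5g3 had a change of 1.58 and Atp5g2 of 0.78, so all 3 rose. Of the summed reads per kilobase, Atp5g1 held 15.8% ± 0.19 (SD, n = 3) in naive and 24.5% ± 2.18 in activated cells, and Atp5g2 held 48.6% ± 1.01 and 33.0% ± 0.58. The groups did not overlap, and the exact 2-sided permutation p was 0.1 for each share, the smallest that 3 against 3 can give. Atp5g1 and Atp5g2 have pseudogenes, with a best identity of 99.76% and 100% and a longest match of 411 and 645 bases. The best and the longest match need not be the same. The shares depend on how the reads of these genes were assigned.

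**Figure D3:**
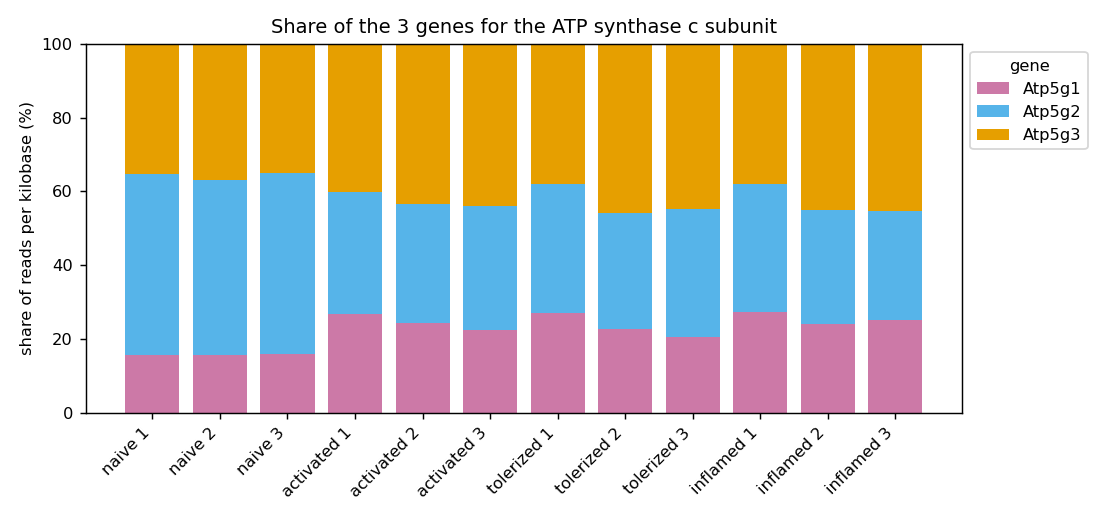
Share of each of the 3 genes for the c subunit in their summed reads per kilobase, in each of the 12 libraries. Atp5g2 lies between 47.4% and 49.2% in naive libraries and between 29.5% and 35.0% in the others, and Atp5g1 lies between 15.6% and 16.0% in naive libraries and between 20.6% and 27.3% in the others.

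**Figure D4:**
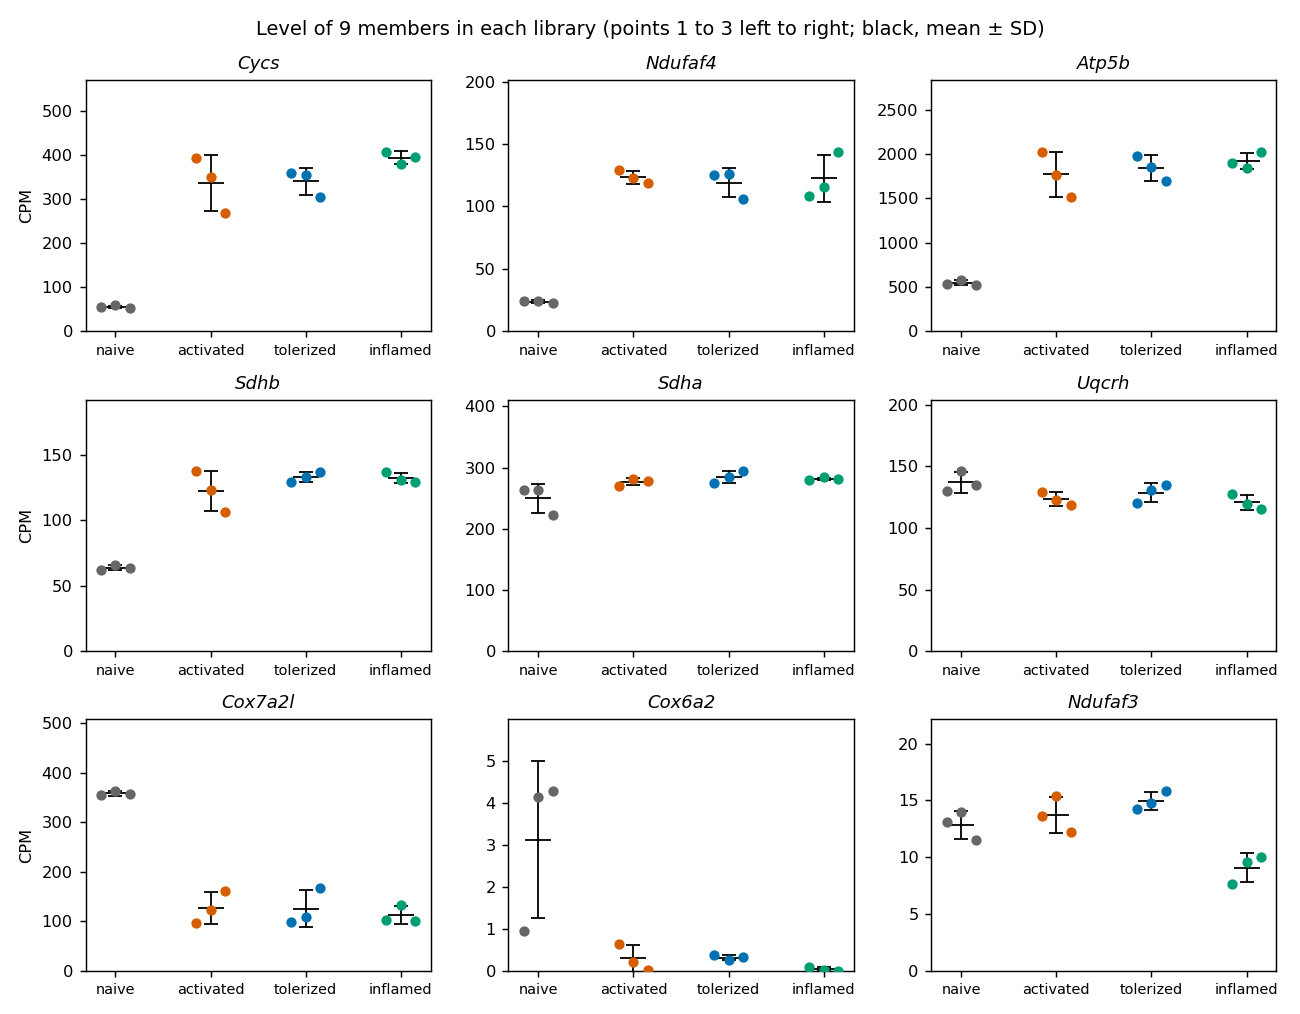
CPM of 9 members in every library, with the mean and SD of each group in black and axes that start at 0. Cycs, Ndufaf4, Atp5b and Sdhb are higher in all exposed libraries, Sdha and Uqcrh stay near the naive level, Cox7a2l and Cox6a2 are lower, and Ndufaf3 is lower in inflamed libraries.

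Among the 3 exposed groups only 1 difference of a member was called in the main fit, that of Ndufaf3 between inflamed and tolerized cells. Between tolerized and activated cells 0 of 85 members were called in either direction (limma, 0% of tested genes higher and 0% lower), and 0 had an unadjusted p under 0.05, where 4.25% of tested genes did. The changes ran from -0.15 to 0.16, and the 95% interval of all 85 members lay within a 2-fold change either way. The libraries did not overlap for 0 members in either direction, where 4.22% of tested genes were higher and 2.45% lower without overlap. limma-voom also called 0 members.

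Between inflamed and activated cells 0 members were called (1.54% of tested genes were called higher and 0.384% lower), and 2 had an unadjusted p under 0.05, where 10% of tested genes did. These were Ndufaf3 (-0.55, adjusted p 0.0907) and Ndufs7 (-0.27, adjusted p 0.447). The 95% interval lay within 2-fold for 84 members, all but Cox6a2. The libraries did not overlap for 2 members higher and 2 lower, where 7.72% and 5.46% of tested genes did not. limma-voom called 0 members.

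Between inflamed and tolerized cells 0 members were called higher and 1 lower, where 1.66% and 1.12% of tested genes were, and 3 members had an unadjusted p under 0.05 (14.7% of tested genes). The libraries did not overlap for 5 members higher and 7 lower, where 9.1% and 9.18% of tested genes did not. The called member was Ndufaf3, at 14.2, 14.8 and 15.8 CPM in tolerized and 7.68, 9.56 and 10.0 CPM in inflamed libraries (-0.67 ± 0.14 (SE), adjusted p 0.0289). All inflamed libraries lay below all others in the study for this gene. The summed level of 10 neutrophil markers was 224, 104 and 12.7 CPM in the same inflamed libraries and 3.0, 3.75 and 11.4 CPM in the tolerized ones, and its part in the difference was not tested. The change kept its size, at -0.56 to -0.73 when each library was left out and -0.66 in the fits of the 2 groups alone and without the naive libraries. The call was lost when the fit held only the 2 groups (adjusted p 0.154), when the naive libraries were left out (adjusted p 0.0794), and in 6 of 12 fits that each left out 1 library: naive replicate 1 or 2 (0.0536 and 0.0518), tolerized replicate 2 or 3 (0.112 and 0.0785) and inflamed replicate 1 or 2 (0.112 and 0.0723).

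The activated libraries differed among themselves across the members. Of the 70 members that rose in activated cells, 69 were lowest of the 3 activated libraries in replicate 3, and 52 were lowest there of all 9 exposed libraries (40 with scaling by library size alone). The order was not counted over other genes, so it is not shown to be particular to the members. Il7r, a gene picked with its values in view that codes for the interleukin 7 receptor, was at 5.76, 34.6 and 87.9 CPM in activated replicates 1, 2 and 3, and Myc, a driver of growth, was at 1205, 821 and 655 CPM. The part of these differences in the members' order was not tested. Without activated replicate 3, 71 members were higher and 6 lower in activated cells.

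The 8 listed markers of CD8 T cells had reads in every library, with Cd8a at 1286 to 1671 CPM in naive and 858 to 1556 CPM in exposed libraries and Cd3e at 339.9 to 423 and 236 to 334 CPM. Their summed level was 4505 to 5553 CPM in naive and 2680 to 4030 CPM in exposed libraries. With Cd4 added, 8 of 9 were called lower and 1 higher in activated cells (35.3% of tested genes each way). The counts were 7 and 1 in tolerized (35.9% and 37.4%) and 5 and 1 in inflamed cells (35.5% and 36.9%). Markers of other spleen cells also differed between groups. The summed level of 14 markers of red pulp macrophages was 1027 to 2613 CPM in naive libraries and 15.8 to 888 CPM in the others, and that of 11 erythroid markers was 1296 to 3076 CPM against 28.9 to 393 CPM. For 10 B cell markers the ranges were 436 to 556 CPM and 102 to 214 CPM. The part of these cells in the members' changes was not tested.

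Promoter windows are shown for the members at the ends of the range, to show what sequence the members have at their starts. RefSeq starts (GRCm38.p6) were found for 73 of the 89 members, with 79 windows of 300 bases from 250 before the start to 50 after it. The 250 bases before the start are printed for Ndufaf4 (chr4:24897833-24898082, plus strand) and Cycs (chr6:50566570-50566819, minus strand), which rose most, Sdha (chr13:74350241-74350490, minus strand), whose change was small, and Cox7a2l (chr17:83514334-83514583, minus strand), which fell. Capitals mark matches to the core of the nuclear respiratory factor 1 motif, and these 4 were chosen after their values were seen.
Ndufaf4: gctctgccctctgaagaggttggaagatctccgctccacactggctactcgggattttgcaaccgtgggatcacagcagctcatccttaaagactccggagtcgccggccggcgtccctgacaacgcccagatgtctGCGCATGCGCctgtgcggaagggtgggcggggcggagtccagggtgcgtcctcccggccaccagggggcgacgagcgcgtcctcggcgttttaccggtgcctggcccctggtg
Cycs: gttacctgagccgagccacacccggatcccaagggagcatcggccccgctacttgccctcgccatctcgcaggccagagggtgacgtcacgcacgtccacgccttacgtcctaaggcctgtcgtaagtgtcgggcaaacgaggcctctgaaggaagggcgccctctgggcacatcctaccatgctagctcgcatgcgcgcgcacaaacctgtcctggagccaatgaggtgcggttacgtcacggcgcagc
Sdha: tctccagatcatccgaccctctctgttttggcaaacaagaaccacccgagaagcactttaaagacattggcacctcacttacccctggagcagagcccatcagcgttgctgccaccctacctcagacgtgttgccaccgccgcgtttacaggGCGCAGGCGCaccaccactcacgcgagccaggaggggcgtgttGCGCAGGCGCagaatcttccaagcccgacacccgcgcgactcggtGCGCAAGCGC
Cox7a2l: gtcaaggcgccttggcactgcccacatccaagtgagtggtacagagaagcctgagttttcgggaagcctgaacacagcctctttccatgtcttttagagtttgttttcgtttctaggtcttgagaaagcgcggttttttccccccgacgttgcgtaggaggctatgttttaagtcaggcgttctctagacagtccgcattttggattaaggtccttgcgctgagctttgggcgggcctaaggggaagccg

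The NRF1 core, searched on both strands, was in 18 of 79 member windows (22.8%) and in 8.01% of 16312 windows of all genes in the table. The window of Sdha held 3 exact matches, at 98, 55 and 10 bases before the start. That of Ndufaf4 held 1, and those of Cycs and Cox7a2l held 0. Runs that differ from the core by 1 letter were not counted, and the printed Cycs sequence holds such a run. A count of 0 therefore does not show that a window lacks a site. The 17 tested members with a match had a median change of 0.86 in activated, 0.87 in tolerized and 0.96 in inflamed cells. The 54 without one had medians of 0.92, 0.92 and 0.87. The YY1 core AAGATGGCG was in 10.1% of member windows and 2.33% of all, the ETS core CCGGAAG in 21.5% and 14.2%, and the ERR element TCAAGGTCA in 2.53% and 0.307%. CCAAT was in 43% and 37.5% and the E-box CACGTG in 11.4% and 9.03%. These are counts of letters in windows and do not show that a factor binds.

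Other genes of the pathway moved in both directions. Of 44 tested assembly and maturation factors outside the symbol rule, 30 rose and 2 fell in activated cells, with a median of 0.60, beside 35.3% of all tested genes in each direction. Hccs, the enzyme that attaches heme to cytochrome c, was at 21.6, 23.7 and 22.7 CPM in naive, 103, 86.5 and 87 in activated, 106, 98.9 and 90.2 in tolerized and 121, 129 and 134 in inflamed libraries (1.97 ± 0.09 (SE), adjusted p 1.14e-07 in activated cells). Inflamed cells differed from activated cells by 0.47 ± 0.09 (SE), adjusted p 0.0247, and from tolerized cells by 0.38 ± 0.09 (SE), adjusted p 0.0621, which was not called. Hccs was the 1 gene of these 44 called higher in inflamed than in activated cells, where 1.54% of tested genes were. Its call was not checked in fits with other settings. Tmem70, which helps to assemble the ATP synthase, and Coa7, listed as 2010305A19Rik, had changes of 1.59 and 1.99 in activated cells.

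Of 20 tested regulators of mitochondrial biogenesis and of mitochondrial DNA expression, 12 rose and 3 fell in activated cells, beside the same 35.3% and 35.3% of tested genes. Pprc1, a coactivator related to PGC-1, was at 105, 93.9 and 78.5 CPM in naive and 454, 424 and 365 CPM in activated libraries (2.16 ± 0.18 (SE), adjusted p 2.46e-06). Ssbp1 (1.68), which binds single strands of mitochondrial DNA, Tfam (0.91), which packages it, and Gabpa (0.76), an ETS factor, rose too. Nrf1 (0.13, adjusted p 0.132), Esrra (-0.02, 0.88) and Ppargc1b (-0.30, 0.191) were not called in activated cells.

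Of 13 tested genes of coenzyme Q synthesis, 8 rose and 3 fell in activated cells (35.3% and 35.3% of tested genes). Pdss1 (1.69), which makes the side chain, Coq7 (2.0), a hydroxylase, and Coq10b (1.81), which binds coenzyme Q, had the smallest p-values. Of 7 genes of other inputs to coenzyme Q, 5 rose and 1 fell, against that same background of 35.3% each way, among them Dhodh (1.23), the pyrimidine enzyme, Etfa (0.85), which carries electrons from fat oxidation, and Prodh (1.95), of proline oxidation. Gpd2, the glycerol phosphate dehydrogenase of the inner membrane, was at 82.7, 68 and 68.3 CPM in activated, 89.2, 89.3 and 84.4 in tolerized and 122, 112 and 119.9 in inflamed libraries. It was called higher in inflamed than in activated cells (0.69 ± 0.11 (SE), adjusted p 0.00882) but not than in tolerized cells (0.43 ± 0.11 (SE), adjusted p 0.0738). Gpd2 was the 1 gene of these 7 called higher in inflamed than in activated cells, where 1.54% of tested genes were. Its call was not checked in fits with other settings. Of 3 ATP synthase parts outside the rule, Usmg5 (1.30) and 2010107E04Rik (1.14) rose and Atpif1 (-0.80), the inhibitor of the enzyme, fell in activated cells.

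**Figure D5:**
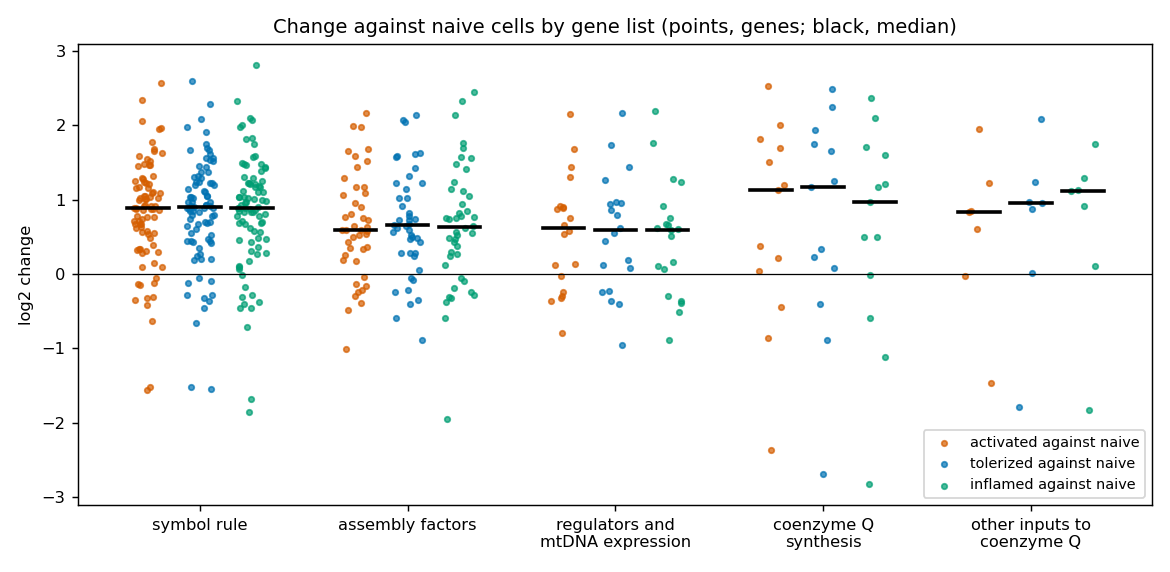
Change against naive cells of the 85 tested members and of the tested genes of 4 other lists, with a point for each gene and a black bar for the median of each list and group, on the log2(CPM + 1) scale. The medians lie above 0 in each list and group, and each list also holds genes below 0.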

How the data were processed

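RNA was sequenced from 12 libraries of sorted mouse T cells. Per the submitters' processing notes, TopHat2, bedtools and DESeq were used with mm10 and GRCm38, with no versions or roles, and the labels' extraction text names cultured fibroblasts, at odds with the other labels. The deposited values were whole read counts per gene, not normalized, written with commas; their unit was therefore recorded as other and count models were not used, a case the design provided for. Totals ran from 29.3 M to 84.5 M (mega) reads. Low values were even in 55.6% to 64.4% of cases, so pairs may have been counted as 2 reads.

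Counts were scaled to counts per M reads (CPM) with trimmed mean of M values. The factors were 1.14 to 1.22 in naive and 0.897 to 1.00 in the other libraries. Genes with at least 0.258 CPM in 3 libraries and 15 reads in all were kept (12499). limma 3.58.1 (R 4.3.3) was fitted with trend on log2(CPM + 1), a scale that understates changes of low genes, with 4 group means and all libraries, after a check on simulated reads. The members, lists and tests were chosen with earlier results of these data known. Named genes were the extremes of each class, complex II, isoform pairs, members called lower or not tested, the 3 smallest p-values of each other list and known regulators. Il7r, Hccs and Gpd2 against activated cells, the class of Cox4nb and the promoters shown were chosen after their values were seen. For 1 tested member no values are reported here; it is counted with the rest. Near-identical copies were pseudogenes at least 97% identical over 200 bases, found for 15 of 89 members. Replicate numbers correlated over 0.1 in all 3 pairs only between tolerized and activated (0.19 to 0.60) and inflamed and activated cells (0.15 to 0.64). Some pairs of unlike number in these comparisons were higher than a like pair, such as inflamed 2 with activated 3 (0.56) and tolerized 3 with activated 2 (0.21). Other unlike pairs were negative, down to -0.57. These values come from the data, not the labels.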

Additional observations from a re-analysis of the deposited data

How the results depend on the processing

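Counts of members called higher against naive cells stayed within 1.5 times under all scalings, limma-voom, filters, pseudocounts and single-library omissions, at 67 to 72 in activated, 68 to 71 in tolerized and 67 to 71 in inflamed cells when each library was left out. Library size alone gave 62, 61 and 61 members higher, and the members' median change was then 0.61, 0.60 and 0.56. Of the 75, 78 and 77 calls, 67, 68 and 68 held under all 3 other scalings and 72, 72 and 72 in every fit without 1 library. Leaving out each library gave 5 to 6, 4 to 7 and 5 to 8 members lower, and 0 to 1 lower in inflamed against tolerized cells. Upper-quartile scaling gave 9 and library size alone 10 members lower in activated cells, and library size alone 11 in inflamed cells. At least 2-fold, 36, 35 and 36 were higher and 2, 2 and 2 lower, and 0 were lower in inflamed against tolerized cells. Library size alone shifted the median of all genes by -0.22, -0.24 and -0.27 (upper quartile -0.16, -0.18 and -0.17), and the share of called genes that were higher in activated cells went from 50% to 39.1% (41.1%). Sdha in tolerized cells turned to -0.034 (upper quartile) and -0.12 (library size), and Ndufs7 in inflamed cells to -0.054 (library size). With library size alone Ndufa2 in tolerized and inflamed cells and Ndufa7 in inflamed cells, which were called higher, also turned in sign; the cause was not tested. With the replicate block and all libraries 71 members were higher and 5 lower in activated cells. With the 2 groups alone and the replicate block, chosen after seeing the data like the fit without the naive libraries, 3 were lower in tolerized cells, and Ndufaf3 was not called (0 lower), nor without the naive libraries (0 lower) or with the 2 groups alone (0 lower). The block changed no call among the 3 comparisons of exposed cells when all libraries were fitted.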
